A study of Mus musculus with 13 samples.

Results

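The hypoxia-response genes described here are 10 transcripts that tissues use to sense or to meet a shortage of oxygen: Hif1a, Egln1, Egln3, Bnip3, Higd1a, Pfkfb3, Hilpda, Adm, Ndrg1 and Ankrd37. They were chosen by name, by a rule that holds no measured value but with earlier results of these data known, as 10 of the 42416 gene identifiers counted, and all 10 were found under their mouse symbols. Bulk RNA sequencing had been done on interscapular brown adipose tissue (iBAT, the main depot of heat-producing fat in mice) of 13 mice on a C57BL6 background, each giving a single library. The labels put 8 of them in the iFAXLKO group, in which the receptor tyrosine kinase gene Axl carries loxP sites and Cre is present, and 5 in the WT group, with the same floxed Axl and no Cre. Both groups were given a high-fat diet (HFD) and tamoxifen every 3 weeks, at room temperature. The paper describes these mice as female littermates, and the labels state no age. Cre was Adipoq-CreERT2, which acts in adipocytes, white and brown alike, once tamoxifen is given, so that Axl is not targeted in the vascular, immune and stromal cells of the depot. Since WT mice lack Cre, an effect of Cre itself cannot be told apart from that of losing Axl.

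Under normal oxygen, the prolyl hydroxylases encoded by Egln1 and Egln3 mark the alpha subunits of the hypoxia-inducible factors (HIF) for capture by the von Hippel-Lindau protein and destruction. When oxygen is short the alpha subunits persist, join ARNT and switch on genes for glycolysis, blood vessel growth, mitochondrial removal and lipid storage, among them Egln1 and Egln3 themselves, so that part of the response is a brake. In brown fat, oxygen use by thermogenic mitochondria is high, and fat expansion on a rich diet is known to be accompanied by tissue hypoxia. Because HIF1A is controlled mainly as a protein, the level of Hif1a mRNA is a poor measure of its activity, and the transcripts of its targets are the usual readout.

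A HIF complex reads a short core, ACGTG or GCGTG, in the promoters of such genes. RefSeq promoters on GRCm38.p6 were matched for 9 of the 10 genes, Ndrg1 being the one not matched, and the 250 bases before each start were searched for either core on both strands (CACGT and CACGC on the opposite one). All 9 genes had at least 1 core in at least 1 promoter. Some windows lay in annotated exons of their own gene. This held for all 250 bases for Higd1a, 148 for the first Pfkfb3 promoter, 121 for the second Hilpda promoter and 70 for Egln1. It also held for 17 bases for Ankrd37, 13 for Bnip3 and 11 for the second Pfkfb3 promoter. Of all 32851 promoters in the table, 38.6% held 1 or more cores, 16.7% held 2 or more, 6.58% held 3 or more and 2.58% held 4 or more. Bnip3 had 5 matches, of which 2 are the overlapping strands of 1 palindrome (CACGTG), and Ankrd37 had 4, of which 2 overlap as well. The GC content was 72.4% for Bnip3 and 67.6% for Ankrd37, against a median of 52.4% over all promoters, and its part in the match counts was not tested. The windows of Ankrd37, Bnip3 and Adm are shown because these genes varied together between mice, and that of Egln3 because this gene had the most negative log2 fold change and a single core far from its start. Each is written 5′ to 3′ on the strand of its gene, ending at the base before the start, with core matches in capitals.
Ankrd37 (chr8:45999851-46000100, minus strand): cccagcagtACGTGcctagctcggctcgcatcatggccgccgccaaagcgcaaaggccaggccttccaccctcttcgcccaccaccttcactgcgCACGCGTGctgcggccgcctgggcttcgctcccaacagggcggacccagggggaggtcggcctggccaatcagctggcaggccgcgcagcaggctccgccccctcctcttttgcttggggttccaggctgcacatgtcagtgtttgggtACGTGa
Bnip3 (chr7:138909507-138909756, minus strand): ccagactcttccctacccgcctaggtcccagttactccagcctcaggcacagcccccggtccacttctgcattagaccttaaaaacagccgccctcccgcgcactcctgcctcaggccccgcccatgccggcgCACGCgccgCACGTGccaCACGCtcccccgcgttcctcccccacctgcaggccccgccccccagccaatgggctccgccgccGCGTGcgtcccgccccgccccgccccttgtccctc
Adm (chr7:110627407-110627656, plus strand): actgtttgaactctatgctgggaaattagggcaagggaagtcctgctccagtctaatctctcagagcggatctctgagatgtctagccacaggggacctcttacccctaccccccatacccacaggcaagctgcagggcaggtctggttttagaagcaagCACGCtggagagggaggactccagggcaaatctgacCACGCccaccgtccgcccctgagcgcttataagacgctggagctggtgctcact
Egln3 (chr12:54203875-54204124, minus strand): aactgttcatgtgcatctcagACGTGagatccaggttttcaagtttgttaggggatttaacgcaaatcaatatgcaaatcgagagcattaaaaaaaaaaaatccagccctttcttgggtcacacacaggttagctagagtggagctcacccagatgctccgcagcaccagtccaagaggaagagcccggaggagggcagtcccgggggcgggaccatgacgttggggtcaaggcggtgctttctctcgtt
The cores of Ankrd37 began 241, 155, 152 and 6 bases before the start and those of Bnip3 117, 108, 107, 99 and 35 bases before it, whereas Adm had 2, at 90 and 54 bases, both on the opposite strand, and Egln3 had 1, at 229 bases. A match is a stretch of letters, not a bound site.

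**Figure D1:**
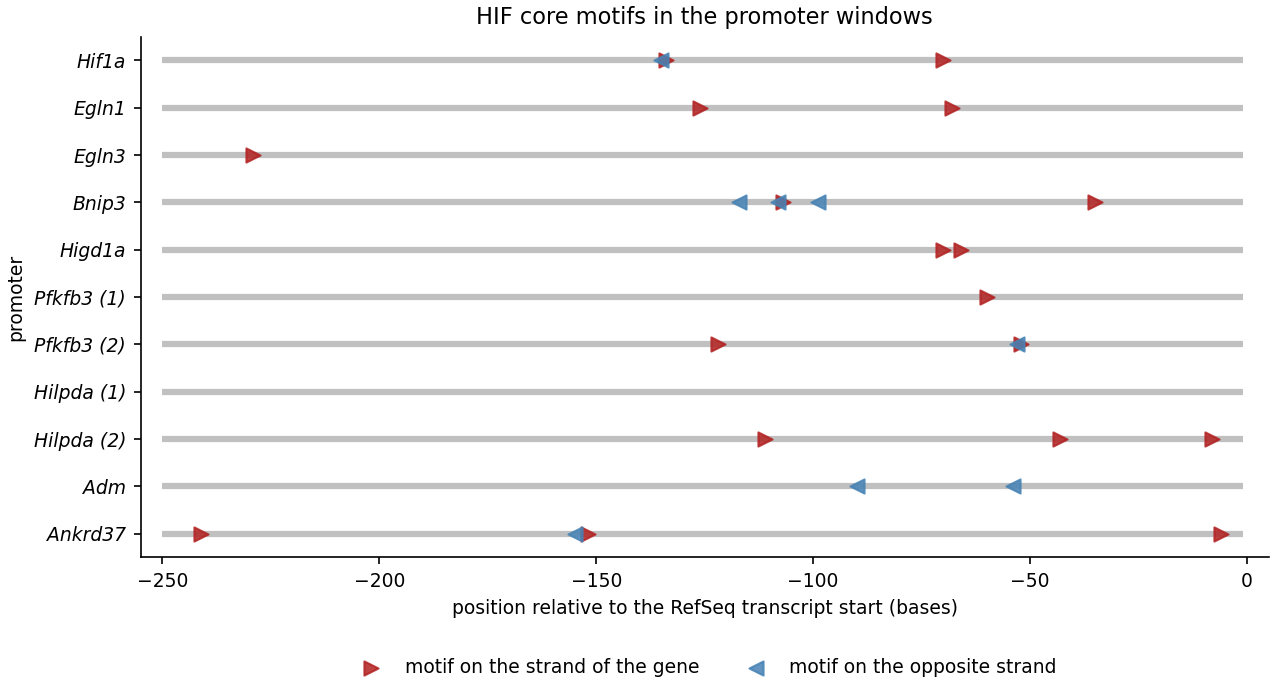
Positions of the cores ACGTG and GCGTG in the 250 bases before the RefSeq start of 11 promoters of 9 genes (x axis, bases relative to the start), with right-pointing red marks on the strand of the gene and left-pointing blue marks on the opposite strand. Bnip3 holds 5 matches and Ankrd37 4, while the first of the 2 Hilpda promoters holds none.

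On GRCm38 (GENCODE M21), the genes lie on 7 chromosomes. Hif1a (chr12:73901375-73947530, plus strand) and Egln3 (chr12:54178981-54203860, minus) share chromosome 12, Egln1 (chr8:124908587-124949324, minus) and Ankrd37 (chr8:45996902-46005707, minus) chromosome 8, and Bnip3 (chr7:138890836-138909519, minus) and Adm (chr7:110627661-110629820, plus) chromosome 7. Higd1a is at chr9:121848563-121858362 (minus), Pfkfb3 at chr2:11471433-11554077 (minus), Hilpda at chr6:29272488-29275446 (plus) and Ndrg1 at chr15:66929318-66969640 (minus).

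The libraries held 22.4 to 32.6 M counts each. The targeted gene does not separate the groups: Axl was 33.2 ± 6.17 CPM (counts per M counts of the library, scaled by TMM factors; SD, n = 8) in the libraries labelled iFAXLKO and 27.8 ± 3.83 CPM (n = 5) in WT, with a log2 difference of 0.25 ± 0.13 (SE, adjusted p = 0.699 by edgeR's quasi-likelihood test), so every direction below rests on the labels. All 10 brown adipocyte markers were expressed, with summed levels of 7455 to 14010 CPM across the 13 libraries. Skeletal muscle markers, which a dissection of this depot can carry along, summed to between 110.3 and 6082 CPM. Those of fibroblasts summed to 519.5 to 1181 CPM in iFAXLKO and 375.5 to 682.6 in WT, and those of macrophages to medians of 221 and 169 CPM, with 10 of 10 and 9 of 10 markers higher at an unadjusted p under 0.05 and none called after adjustment. In whole tissue, fewer cells of a type and less RNA per cell cannot be told apart.

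None of the 10 hypoxia-response genes was called between the groups at an adjusted p under 0.05, in a fit that called 17 of 13360 genes (0.127%). All 10 passed the filter on low values. In this fit none had an unadjusted p under 0.05, against 986 of all genes (7.38%), and none had one in DESeq2. Other fits gave a few members at that level and called none of them. There were 2 with limma-voom (Ankrd37 and Pfkfb3, against 11.3% of all genes), 3 in edgeR with the replicate number as a block over replicates 1 to 5 of each group (Hif1a, Egln3 and Pfkfb3, against 11.4%), 2 on the same libraries without the block (Hif1a and Pfkfb3, against 8.65%), 1 without the filter on low values (Egln1, against 5.97%) and 2 without iFAXLKO replicate 5 (Egln1 and Egln3, against 8.95%). Leaving out another single library gave at most 1. The CPM ranges of the 2 groups overlapped for each of the 10 genes, as they did for all but 58 genes tested (0.434%). The log2 fold change, iFAXLKO minus WT, was below 0 for 7 of 10 genes and for 53.6% of all genes, with a median of -0.18 over the 10 and -0.01 over all. The lowest was that of Egln3 (-0.48) and the highest that of Adm (0.13), and adjusted p ran from 0.708 to 0.997. Leaving out 1 library at a time kept the median of the 10 between -0.24 and -0.10.

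**Figure D2:**
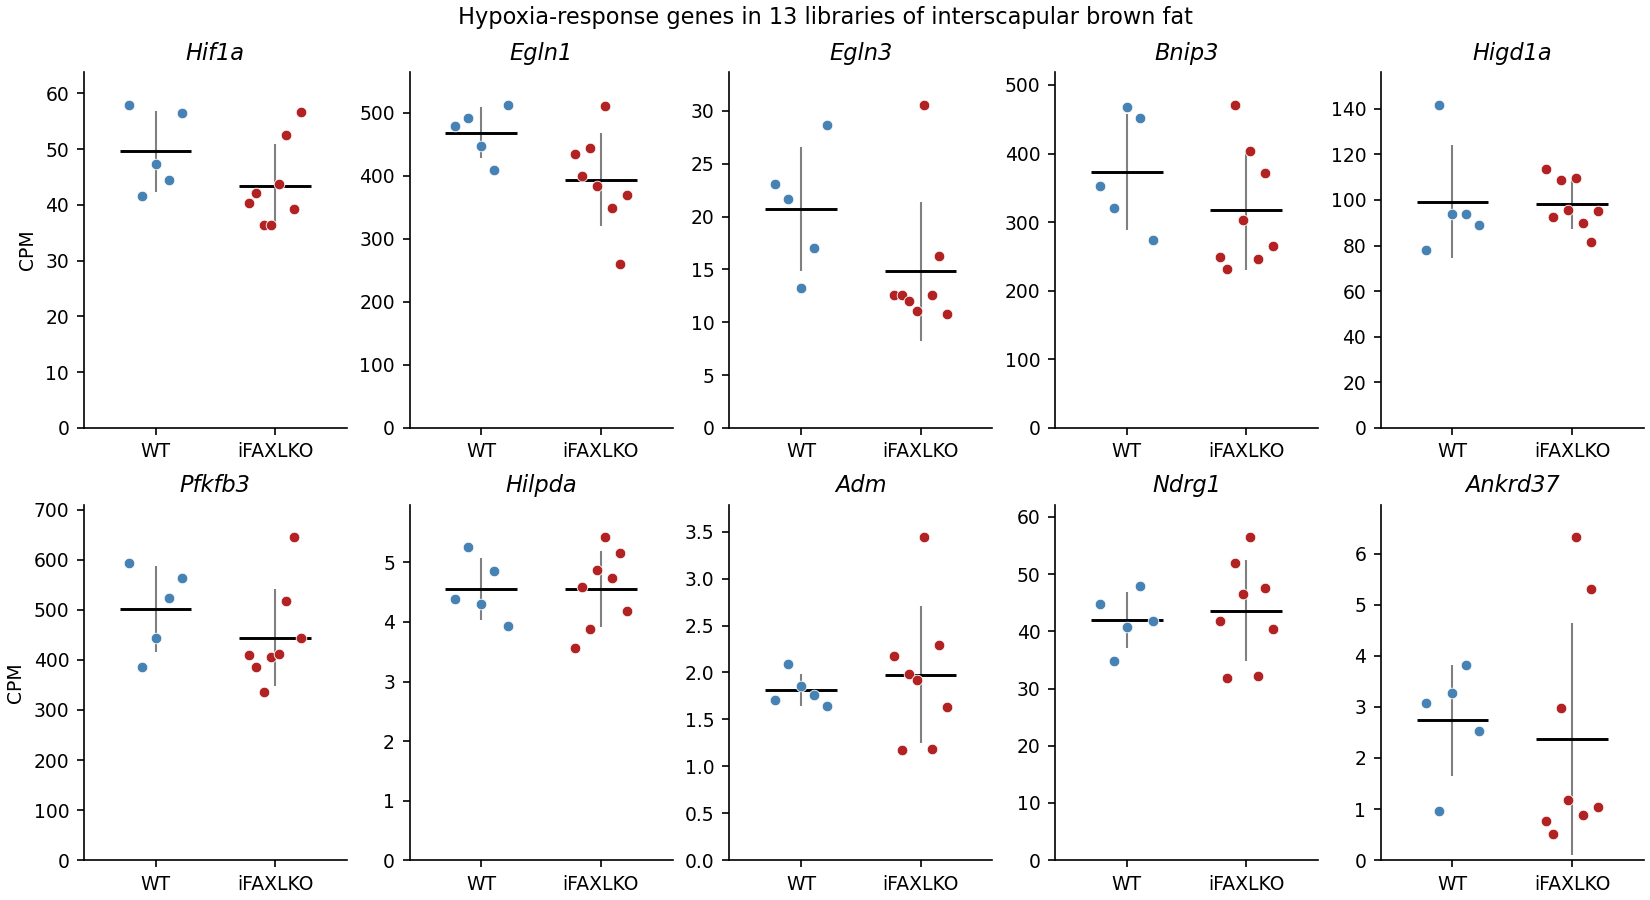
CPM of each of the 10 genes (y axis, from 0) in the 5 WT libraries (blue) and the 8 libraries labelled iFAXLKO (red), 1 point per mouse in order of replicate number, with the mean as a black line and 1 SD as a grey line. The groups overlap in every panel, and iFAXLKO replicate 5 is the highest of all libraries for Egln3, Hilpda, Adm, Ndrg1 and Ankrd37.

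Per kilobase of exon the 10 transcripts fell into a high and a low set. As TPM (transcripts per M transcripts, from the counts and the exon length of each gene), the medians over 13 libraries were 318 for Bnip3, 261 for Egln1, 135 for Pfkfb3 and 72.0 for Higd1a, then 16.2 for Hif1a, 14.5 for Ndrg1, 11.6 for Egln3, 9.14 for Hilpda, 3.64 for Ankrd37 and 2.49 for Adm. The ranges of Bnip3 (232 to 483 TPM) and Egln1 (175 to 315 TPM) overlapped, and so did those of Egln1 and Pfkfb3 (97.2 to 206 TPM). Higd1a, at 58.8 to 88.8 TPM, lay below all of these and above Hif1a, at 13.4 to 22.6 TPM. From Hif1a down, the range of each gene over the 13 libraries overlapped that of its neighbour in the order. Within libraries, Hilpda was nonetheless above Ankrd37 in 13 of 13 and Egln3 above Hilpda in 12 of 13. Hif1a was above Ndrg1 in 9 of 13, Ndrg1 above Egln3 in 9 of 13 and Ankrd37 above Adm in 7 of 13, so the order within these 3 pairs was not steady. The oxygen sensor Egln1 was thus far more abundant than Egln3 (9.31 to 25.1 TPM), without overlap in any library.

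Among the regulators, Hif1a, which encodes the oxygen-labile subunit of HIF-1, measured 58.0, 41.5, 47.4, 44.4 and 56.5 CPM in WT replicates 1 to 5. In the libraries labelled iFAXLKO it ranged from 36.3 to 56.6 CPM with a median of 41.2. Of these, 4 of 8 lay below the lowest WT library, and 2 of 8 lay above the WT mean, with a log2 difference of -0.19 ± 0.12 (SE, 95% interval -0.45 to 0.06, adjusted p = 0.756, exact permutation p = 0.154). On replicates 1 to 5 of each group it was -0.31 with the replicate block and -0.32 without it, and the gene was not called. Egln1, the main oxygen sensor of the pathway, measured 479, 492, 448, 409 and 513 CPM in WT and 260 to 510 CPM in iFAXLKO, with a median of 391.8. Here 5 of 8 iFAXLKO libraries lay below the lowest WT value and 1 of 8 above the WT mean. The difference was -0.25 ± 0.13 (95% interval -0.52 to 0.02, adjusted p = 0.708, exact permutation p = 0.0676), and -0.11 on replicates 1 to 5 of each group alone.

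Egln3, the sensor most strongly induced by HIF in many cells, had the lowest fold change of the 10. In WT it measured 23.1, 21.6, 13.2, 17.1 and 28.6 CPM, and in iFAXLKO 10.8 to 30.6 CPM with a median of 12.6. Of the libraries labelled iFAXLKO, 7 sat at 16.3 CPM or lower, 6 of them below every WT library, and the remaining one, replicate 5, at 30.6 CPM, was above all WT libraries. The log2 difference was -0.48 ± 0.25 (95% interval -1.03 to 0.06, adjusted p = 0.717, exact permutation p = 0.0754). Without iFAXLKO replicate 5 it was -0.72 and without WT replicate 5 -0.34, and the gene was not called in either fit. The library numbers in the labels form a lower range, with 7 libraries, and an upper one, with 6, and Egln3 differed by -0.64 in the lower range and by -0.45 in the upper. The differences in the 2 ranges were -0.32 and -0.08 for Hif1a and -0.19 and -0.34 for Egln1.

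Bnip3 and Higd1a encode proteins of the mitochondrial membranes, BNIP3 as a receptor for the removal of mitochondria by autophagy and HIGD1A as a small partner of the respiratory chain. Bnip3 measured 352, 320, 468, 452 and 274 CPM in WT and 232 to 471 CPM in iFAXLKO, with a median of 284. The lowest WT library stood above 4 of the 8 iFAXLKO libraries, but the highest value of all was in iFAXLKO, and the difference was -0.23 ± 0.19 (95% interval -0.63 to 0.16, adjusted p = 0.848, exact permutation p = 0.251). It was -0.12 without WT replicate 3, -0.15 without WT replicate 4 and -0.38 with limma-voom, without a call. Higd1a measured 77.9, 142, 93.8, 93.9 and 89.1 CPM in WT and 81.6 to 114 CPM in iFAXLKO, with a median of 95.4. Its lowest and highest values were both in WT, and the difference was -0.01 ± 0.13 (95% interval -0.28 to 0.26, adjusted p = 0.991). Without WT replicate 2, the library at 142 CPM, it was 0.15. The relatives Bnip3l (-0.05 ± 0.06), Higd1b (-0.02 ± 0.18) and Higd2a (-0.05 ± 0.12) were not called either.

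Pfkfb3 makes fructose 2,6-bisphosphate, the strongest activator of glycolytic phosphofructokinase, and Hilpda encodes a lipid droplet protein that restrains the lipase ATGL. Pfkfb3 was at 594, 386, 443, 523 and 564 CPM in WT and at 335 to 646 CPM in iFAXLKO, with a median of 412. In iFAXLKO, 6 of 8 libraries lay below the WT mean and 1, replicate 7, above the whole WT range (difference -0.18 ± 0.15, 95% interval -0.49 to 0.14, adjusted p = 0.858, exact permutation p = 0.258). It was -0.11 without WT replicate 1 and -0.27 without iFAXLKO replicate 7. On replicates 1 to 5 of each group it was -0.35 with the replicate block and -0.37 without it. The gene was called in none of these fits. Hilpda was low and even, at 4.39, 5.27, 4.30, 4.86 and 3.93 CPM in WT and 3.56 to 5.43 CPM in iFAXLKO, from 90 to 160 counts per library. Its difference was 0.002 ± 0.12 (95% interval -0.25 to 0.26, adjusted p = 0.997). The other phosphofructokinase-2 genes had values of 0.11 ± 0.14 (Pfkfb1), 0.11 ± 0.14 (Pfkfb2) and 0.22 ± 0.13 (Pfkfb4), and the lipase gene Pnpla2 one of -0.04 ± 0.08, none of them called.

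Adm, the gene for the secreted vasodilator adrenomedullin, had the lowest median TPM of the 10, with 31 to 92 counts per library. It measured 1.70, 2.09, 1.86, 1.76 and 1.65 CPM in WT and 1.17 to 3.45 CPM in iFAXLKO, with a median of 1.95. The WT libraries spanned a narrow range, with 3 of 8 iFAXLKO libraries above it and 3 below. The difference was 0.13 ± 0.23 (95% interval -0.36 to 0.61, adjusted p = 0.952), and without iFAXLKO replicate 5 it was -0.03. The adrenomedullin receptor is built from Calcrl with Ramp2 or Ramp3. Calcrl measured 10.03 ± 2.15 CPM in iFAXLKO and 8.43 ± 1.46 in WT (0.25 ± 0.15, adjusted p = 0.751), Ramp2 differed by 0.01 ± 0.10 and Ramp3 by 0.34 ± 0.25, without a call.

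Ndrg1 encodes a stress-induced protein of the N-myc downstream regulated family and Ankrd37 a small ankyrin repeat protein whose gene is a direct HIF-1 target. Ndrg1 was at 44.7, 34.8, 40.8, 48.0 and 41.8 CPM in WT and at 31.9 to 56.5 CPM in iFAXLKO, with a median of 44.2. Its lowest and highest values were both in iFAXLKO and the difference was 0.05 ± 0.13 (95% interval -0.23 to 0.34, adjusted p = 0.970). Ankrd37 was the most variable of the 10. In WT it measured 3.08, 0.958, 3.27, 3.83 and 2.53 CPM, and in iFAXLKO replicates 1 to 8 it measured 0.763, 0.514, 2.98, 1.19, 6.33, 0.880, 5.31 and 1.04 CPM, from 14 to 169 counts per library across all 13. In iFAXLKO, 5 libraries were at 1.19 CPM or lower and the other 3 at 2.98 CPM or higher, whereas 4 of 5 WT libraries were at 2.53 CPM or higher. The highest library exceeded the lowest 12.3-fold, against 1.53-fold to 2.94-fold for the other 9 genes, and the within-group SD of its log2 CPM, 1.13, was larger than that of 98.7% of all genes tested. The difference between groups was -0.21 ± 0.60 (95% interval -1.51 to 1.09, adjusted p = 0.9748). This interval spans changes of more than 2-fold either way, so at this spread a difference of that size was not detectable for Ankrd37. The exact permutation test (p = 0.361) compared group means of log2 CPM, which is another estimate than the -0.21. In means of log2 CPM the difference was -0.92 in the lower range of library numbers and -0.38 in the upper. Fits that left out 1 library gave -0.61 to -0.06, and limma-voom with sample quality weights gave -1.18 without calling the gene. The exons of Ankrd37 overlap those of Ufsp2 by 57 bp and those of Lrp2bp by 349 bp on the other strand, and the strand setting of the count is not given in the sources used here. Lrp2bp had 48 counts in all 13 libraries together, and Ufsp2, at 23.4 to 33.6 CPM, had a within-group r of -0.08 with Ankrd37.

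**Figure D3:**
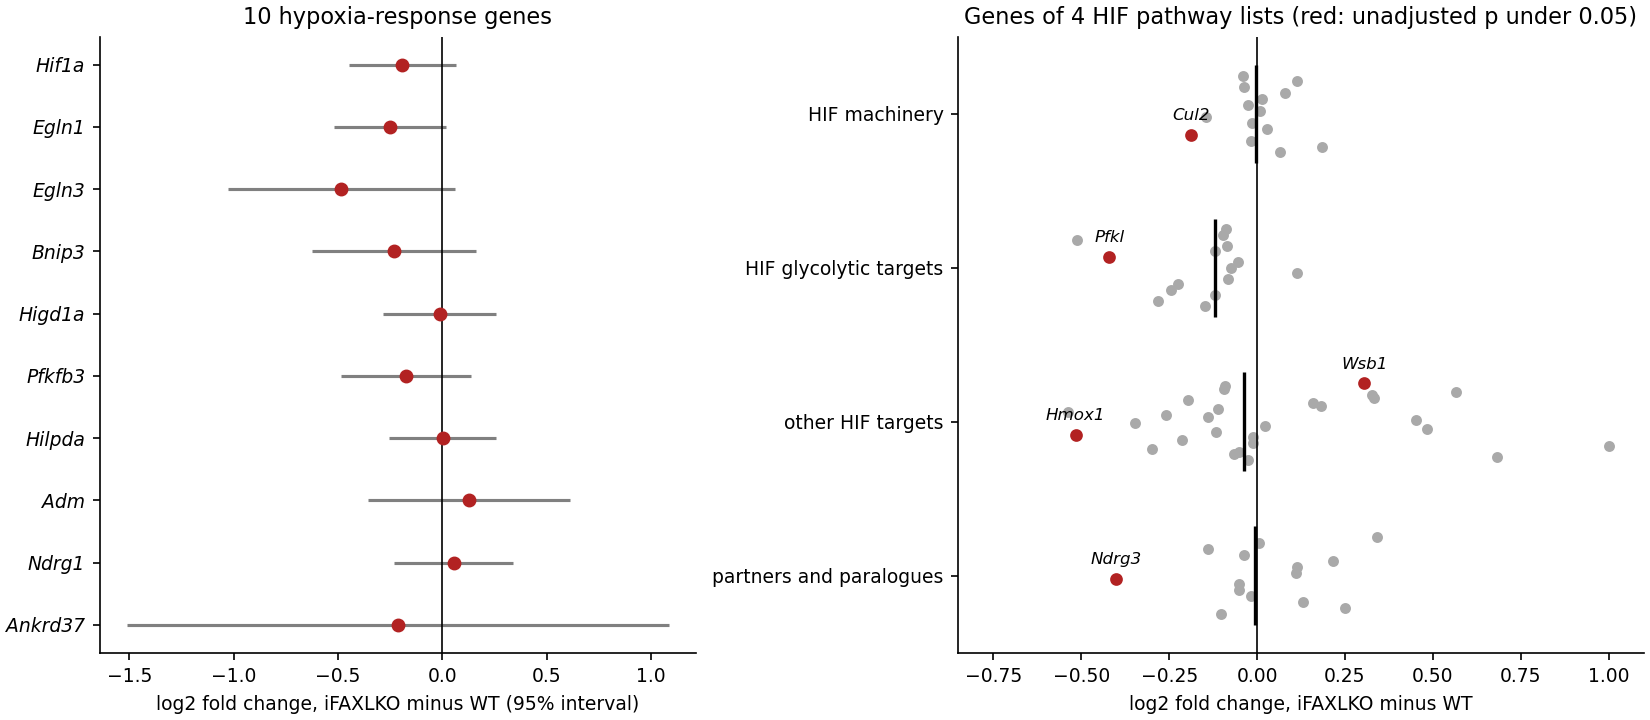
Left, log2 fold change of the 10 genes (x axis, iFAXLKO minus WT; points) with 95% intervals from the edgeR fit (lines), all of which include 0. Right, log2 fold changes of the 71 genes tested from the 4 HIF pathway lists, 1 point per gene, with the list's median as a black line and genes at an unadjusted p under 0.05 in red; none had an adjusted p under 0.05 in edgeR.

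The rest of the pathway was followed in 4 lists of 76 genes, of which 71 were tested, and edgeR called 0 of them, with 5 (7.04%) at an unadjusted p under 0.05, 1 higher and 4 lower, against 7.38% of all genes. DESeq2 called 1, Ndrg3, and had 8 at that level (11.3%, against 8.30% of all genes), and limma-voom called 0 and had 5 (7.04%, against 11.3%). In edgeR the number at that level was 12 of 69 (17.4%, against 8.95% of all genes) without iFAXLKO replicate 5. It was 8 of 71 (11.3%, against 7.17%) without WT replicate 3 and 9 of 70 (12.9%, against 9.08%) without WT replicate 4. Of the fits with 1 library left out, the lowest number was 4, without iFAXLKO replicate 4 (5.63%, against 5.18%), WT replicate 1 (5.71%, against 6.19%) or WT replicate 5 (5.63%, against 5.06%). With the replicate block it was 15 of 71 (21.1%, against 11.4%), and on the same libraries without the block 6 of 71 (8.45%, against 8.65%). None of these fits called a gene of the lists. The first list held the HIF machinery, namely the partner subunits, the von Hippel-Lindau ubiquitin ligase, the asparaginyl hydroxylase Hif1an and coactivators. Its 14 tested genes had a median log2 fold change of -0.002, 7 above 0 and 7 below. Cul2, the scaffold of the ligase, had the smallest p, with 27.1 ± 2.74 CPM in iFAXLKO and 30.9 ± 3.22 CPM in WT (-0.19 ± 0.09, adjusted p = 0.652), followed by Eloc, which encodes its adaptor elongin C (-0.14 ± 0.11, adjusted p = 0.840). Eloc stood at 86.5 CPM in WT replicate 2, at 52.7 to 58.8 CPM in the other WT libraries and at 47.6 to 63.2 CPM in iFAXLKO. With the muscle score as a covariate, or with upper quartile factors, Cul2 no longer had an unadjusted p under 0.05. Epas1, which encodes HIF-2 alpha, was the most abundant subunit gene, at 704 ± 60.9 and 716 ± 87.7 CPM, and Egln2, the third hydroxylase, differed by 0.03 ± 0.10.

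Among the glycolytic targets all 15 genes were tested and 14 had a log2 fold change below 0, with a median of -0.12. Only Pfkl, the liver-type phosphofructokinase, had an unadjusted p under 0.05. It measured 1434, 1698, 1042, 1033 and 1516 CPM in WT and 780 to 1316 CPM in iFAXLKO, where all 8 libraries lay below the WT mean (-0.42 ± 0.14, adjusted p = 0.507). Aldoa, the muscle-type aldolase, came next, at 3618 ± 704 CPM in iFAXLKO and 4402 ± 974 CPM in WT (-0.28 ± 0.15, adjusted p = 0.717). The lactate dehydrogenase gene Ldha differed by -0.07 ± 0.12, the kinase gene Pdk1 by -0.05 ± 0.17 and the glucose transporter gene Slc2a1 by -0.10 ± 0.14. The muscle markers summed to medians of 991.1 CPM in iFAXLKO and 1698 CPM in WT, without a called marker. With the muscle score as a covariate, Pfkl still had an unadjusted p under 0.05 and was not called, while the part of muscle in the other values was not tested.

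Of the other HIF targets, 28 of 30 were tested, with a median of -0.04, 11 above 0 and 17 below. Hmox1, the haem-degrading oxygenase, measured 12.03, 11.75, 21.04, 14.04 and 12.96 CPM in WT and 7.23 to 16.1 CPM in iFAXLKO, with 1 of 8 libraries above the WT mean (-0.52 ± 0.18, adjusted p = 0.512). In edgeR with all libraries Hmox1 had an unadjusted p under 0.05. It did not without WT replicate 3, the library at 21.04 CPM, nor on replicates 1 to 5 with or without the block. Wsb1, a ubiquitin ligase subunit, lay above the WT mean in all 8 libraries labelled iFAXLKO, at 10.9 to 13.9 CPM against 6.88 to 11.8 CPM in WT (0.30 ± 0.12, adjusted p = 0.551). The angiogenic factor Vegfa differed by -0.09 ± 0.11 and the lipoprotein lipase inhibitor Angptl4 by -0.03 ± 0.20. In the list of partners and paralogues, with a median of -0.01 over 14 tested genes, Ndrg3, a relative of Ndrg1 known as a lactate-binding protein in hypoxia, had the smallest p of all genes in the 4 lists. It measured 212, 202, 166, 162 and 206 CPM in WT and 122 to 162 CPM in iFAXLKO, where 7 of 8 libraries lay below every WT library and the remaining one met the lowest WT value at 162 CPM. The difference was -0.40 ± 0.09 (adjusted p = 0.193 by edgeR), with an adjusted p of 0.00934 by DESeq2 and of 0.191 by limma-voom. Its log2 fold change stayed between -0.45 and -0.33 under the alternatives tried. Ndrg1 itself (0.05 ± 0.13) and Ndrg2 (-0.05 ± 0.08) were not called.

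Mice of 1 group differed from each other, and these differences were shared by some of the 10 genes. With the group means subtracted, log2 CPM was correlated over the 13 libraries for all 45 pairs, and p-values came from 100000 permutations and were adjusted over the 45. In all, 5 pairs passed an adjusted p of 0.05 by Pearson's r, 4 positive and 1 negative. They were Ankrd37 with Ndrg1 (r = 0.85, rho = 0.87; permutation p = 0.00022, adjusted 0.0099; rho p = 0.00016, adjusted 0.0072), Ankrd37 with Bnip3 (r = 0.80, rho = 0.79; adjusted 0.0251 and 0.0565), Adm with Ndrg1 (r = 0.76, rho = 0.60; adjusted 0.0251 and 0.243), Bnip3 with Ndrg1 (r = 0.76, rho = 0.74; adjusted 0.0251 and 0.08) and Higd1a with Pfkfb3 (r = -0.76, rho = -0.71; adjusted 0.0251 and 0.102). By rho, 1 pair passed. An r of at least 0.7 was reached by 4 of 45 pairs (8.89%) and by 3.55% of all pairs of the genes tested, and the median r was 0.13 over the 45 pairs and -0.001 over all pairs.

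Ankrd37, Ndrg1, Bnip3 and Adm thus held the strong positive pairs, with r of 0.65 between Ankrd37 and Adm and 0.58 between Bnip3 and Adm. The libraries that were high and low for these genes were in large part the same ones. The mean deviation of the 4 genes from their group means, in log2 units, was highest in iFAXLKO replicates 5 (0.89), 7 (0.59) and 3 (0.46) and lowest in iFAXLKO replicates 2 (-0.75) and 6 (-0.55). Replicate 5 was the highest library for 5 of the 10 genes and replicate 2 the lowest for 4. The number of passing pairs depended on these mice. Without iFAXLKO replicate 5 no pair passed, without replicate 6 only 1 and without replicate 2 only 2, whereas 8 passed without replicate 7. The sizes were steadier. Ankrd37 and Ndrg1 kept an r of 0.80 to 0.88 over the 13 fits with 1 library left out (adjusted p = 0.053 without iFAXLKO replicate 5), Ankrd37 and Bnip3 0.77 to 0.87, and Bnip3 and Ndrg1 0.72 to 0.83. Adm with Ndrg1 ran from 0.67 to 0.89.

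After the 2 libraries farthest from the median of the first-named gene of the pair were removed, r was 0.83 for Ankrd37 with Ndrg1 (0.74 by distance from the median of Ndrg1), 0.73 for Ankrd37 with Bnip3, 0.82 for Bnip3 with Ndrg1, 0.53 for Adm with Ndrg1 and -0.80 for Higd1a with Pfkfb3. In the 8 iFAXLKO libraries alone, r was 0.84, 0.89, 0.88, 0.92 and -0.76 for the same pairs in this order. In the 5 WT libraries, too few for a test, it was 0.91, 0.545, 0.41, -0.78 and -0.90, so that Adm with Ndrg1 had opposite signs in the 2 groups. Adm with Ankrd37 did as well, at 0.80 in iFAXLKO and -0.76 in WT. Within the lower and the upper range of library numbers it was 0.89 and 0.92 for Ankrd37 with Ndrg1, 0.90 and 0.86 for Ankrd37 with Bnip3, 0.75 and 0.86 for Bnip3 with Ndrg1, 0.59 and 0.98 for Adm with Ndrg1, and -0.79 and -0.94 for Higd1a with Pfkfb3, over 7 and 6 libraries. The muscle score of the libraries had within-group r of 0.10 with Ankrd37, 0.01 with Ndrg1, 0.20 with Bnip3 and 0.31 with Adm, and with this score removed the same number of pairs, 5, passed. Total counts had r between -0.07 and -0.01 with these 4 genes. The percentage of mitochondrial counts had r of -0.40 with Adm and of -0.14 to -0.03 with Ankrd37, Ndrg1 and Bnip3. For Higd1a, r was -0.30 with total counts, -0.21 with that percentage and 0.23 with the muscle score. For Pfkfb3 it was 0.05, -0.03 and -0.09 in the same order.

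**Figure D4:**
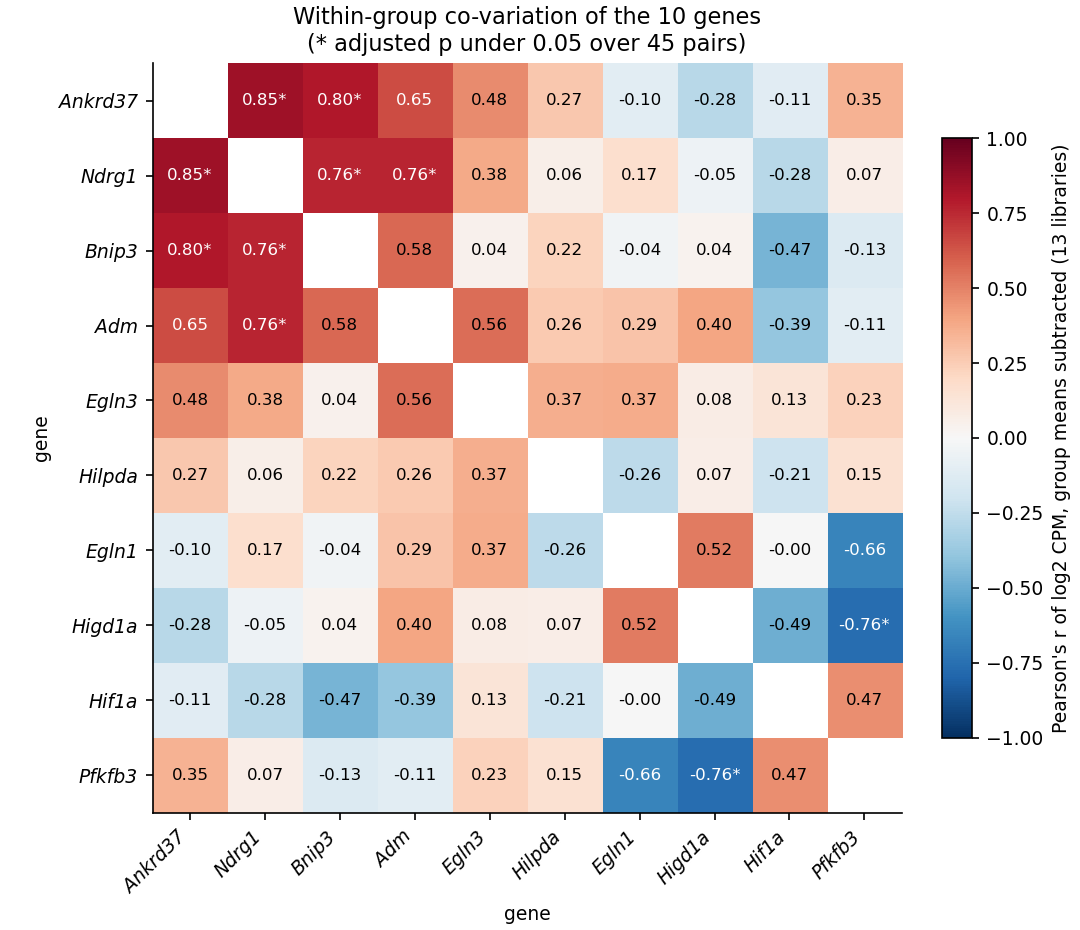
Pearson's r of log2 CPM between each pair of the 10 genes over 13 libraries, with the group means subtracted (colour and printed value; x and y axes, genes), where an asterisk marks an adjusted p under 0.05 over 45 pairs. Ankrd37, Ndrg1, Bnip3 and Adm form the block of positive values at the upper left, at 0.58 to 0.85, and Higd1a with Pfkfb3 is the strongest negative pair, at -0.76.

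Hif1a did not share this pattern. Its r was -0.11 with Ankrd37, -0.28 with Ndrg1, -0.47 with Bnip3 and -0.39 with Adm, none of which passed. The sensors Egln1 and Egln3 had an r of 0.37 with each other. Egln3 had r of 0.56 with Adm and 0.48 with Ankrd37. These were 0.17 and 0.11 once iFAXLKO replicate 5 and WT replicate 5, which lay farthest from the Egln3 median, were removed. Leaving out iFAXLKO replicate 5 alone gave 0.05 and 0.10, whereas leaving out WT replicate 5 alone raised r with Adm to 0.64. Both r values thus depended on iFAXLKO replicate 5. Egln1 had an r of -0.66 with Pfkfb3 (permutation p = 0.0151, adjusted 0.0968), which was -0.11 without the 2 libraries farthest from its median. Hilpda had no r beyond 0.37 with any of the others.

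**Figure D5:**
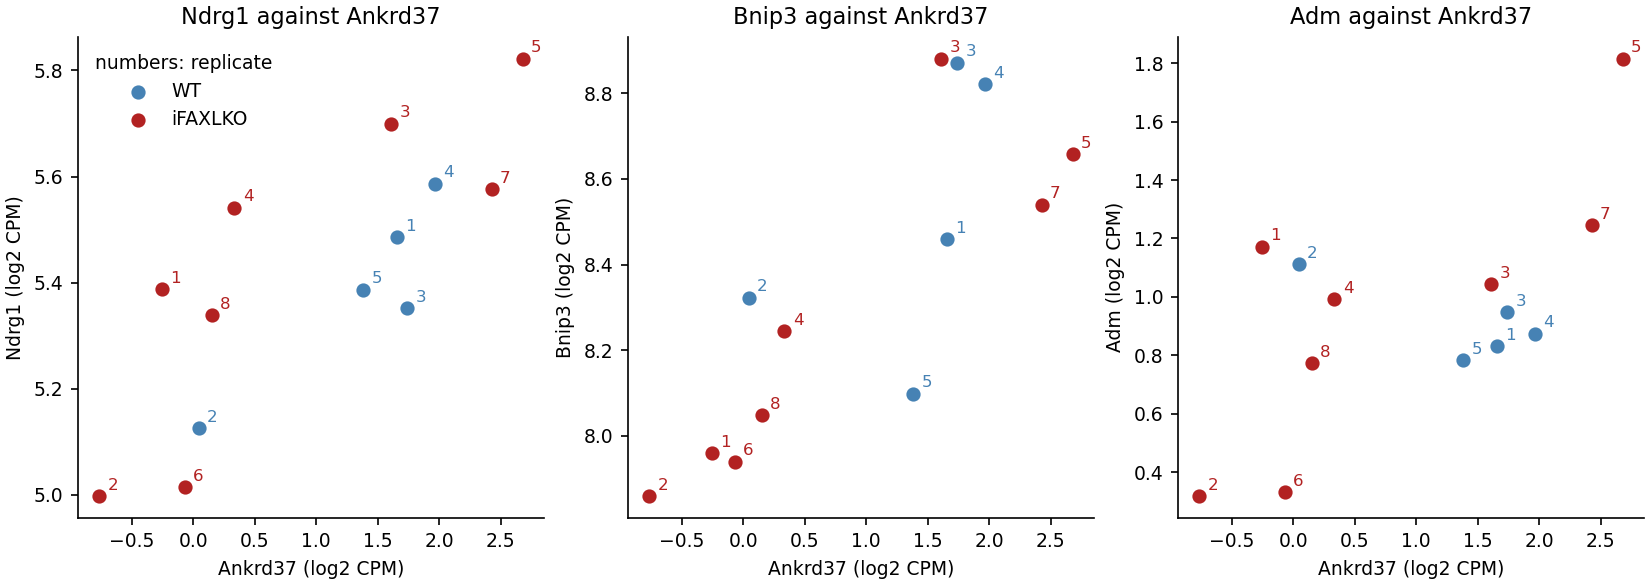
Log2 CPM of Ndrg1, Bnip3 and Adm (y axes) against that of Ankrd37 (x axes) in the 5 WT libraries (blue) and the 8 libraries labelled iFAXLKO (red), numbered by replicate. iFAXLKO replicates 2 and 6 lie at the lower left of each panel and replicates 3, 5 and 7 to the right, and the WT libraries spread little in Adm.

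The genes whose within-group profile over the 13 libraries was most like that of each of the 10 were sought among all genes tested. For Ankrd37 they were Btg1 (r = 0.98), Pnrc1 (0.96) and Grb10 (0.95), with Btg1 an antiproliferative gene and Grb10 an adaptor of the insulin receptor. Pnrc1, a nuclear receptor coregulator, was also among the 3 most like Ndrg1 (0.93), beside Tcf23 (0.94) and Ror1 (0.93). For Bnip3 they were the endothelial transcription factor Sox17 (0.96), Utp14a (0.95) and the splicing factor Srsf6 (0.95), and for Adm Gpatch3 (0.89), Zfp874b (0.89) and Lpin3 (0.86). Higd1a was most like Tmem256 (0.98), Gm49373 (0.98) and the mitochondrial ribosomal gene Mrps11 (0.97), and 10.7% of all genes had an r of at least 0.7 with it, against 3.10% for Ankrd37 and 0.337% for Hilpda. Hif1a was most like Megf9 (0.98), the transcription factor Atf2 (0.96) and the mitochondrially encoded mt-Nd5 (0.95). The sensor Egln1 was followed by Ccdc91 (0.94), Rilp (0.93) and B230119M05Rik (0.93), and Egln3 by Ntsr2 (0.93), Morf4l2 (0.91) and Cct6a (0.89). For Pfkfb3 the nearest were Pacs2 (0.94), Slx4ip (0.93) and Fam53c (0.93), and for Hilpda Cwc27 (0.89), Mettl21a (0.85) and Rnaseh1 (0.84). None of these genes was called between the groups.

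Within the pathway lists, the genes nearest to Ankrd37 were the collagen lysyl hydroxylase Plod2 (r = 0.91) and the histone demethylase Kdm3a (0.88), and 6 of the 71 genes tested (8.45%) had an r of at least 0.7 with it, compared with 3.10% of all genes. For Ndrg1 the count was 5 of 71 (7.04%, against 2.52% of all genes), with Irs2 (0.75), Plod2 (0.73) and Kdm3a (0.72) among them. For Bnip3 it was 3 (4.23%, against 2.04%), led by Ramp3 (0.83) and Pdgfb (0.80), and for Adm 2 (2.82%, against 0.868%), the collagen prolyl hydroxylase P4ha2 (0.75) and the mTOR inhibitor Ddit4 (0.75). Higd1a kept other company, with Rbx1 (0.93), Eloc (0.93) and Elob (0.91) of the ubiquitin ligase highest. Of all genes, 10.7% had an r of at least 0.7 with it. WT replicate 2 was the highest of the 13 libraries for Higd1a (142 CPM) and for Eloc (86.5 CPM). The part of this library in these r values was not tested. These r values describe 13 shared libraries, were chosen for being highest, and carry no test.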

How the data were processed

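The submitters' processing notes name bcl2fastq 2.20, fastp 0.20.0, STAR 2.7.4a, DESeq2 and GRCm38.p6, whereas the methods of the study name Trim Galore and hisat2 on GRCm38; the labels give polyadenylated RNA and the methods rRNA depletion. The counter and its strand setting are not given in the sources used here. The deposited files hold raw counts per Ensembl identifier, which the authors made from the mapped reads, with no normalization. Symbols and positions came from GENCODE M21.

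A gene entered the test if it exceeded 1 CPM in 5 or more libraries, and iFAXLKO was compared with WT in all 13 libraries by edgeR 4.0.16 (TMM, robust quasi-likelihood F test, Benjamini-Hochberg over all genes tested). A gene was called at an adjusted p under 0.05. The SE of a log2 fold change is its size over the square root of F. Group means of log2 CPM (prior count 2) were compared by an exact permutation test over all 1287 assignments of 8 and 5 libraries, 2-sided, for which the smallest possible p is 0.000777. Log2 CPM with group means subtracted was correlated over the 13 libraries, with p from 100000 permutations. The permutations shuffled the centred values freely over both groups and made no allowance for the means subtracted, so these p-values may be too small. DESeq2 1.42.0, limma 3.58.1, upper quartile or RLE factors, a library size that leaves out mitochondrial and the 10 most abundant genes, no filter, covariates (muscle score, library number), a replicate block and leaving out each library were tried as alternatives. The fit without the block on replicates 1 to 5 and, for the correlations, RLE factors, library number and leaving out libraries were added after seeing the data.

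Named are all 10 genes, Axl, from each pathway list the genes with p under 0.05 or, where fewer than 2 reached that, the 2 with the smallest p, paralogues and partners of the 10, and for each of the 10 the 3 genes with the highest r. The other pathway genes given with values (Epas1, Ldha, Pdk1, Slc2a1, Vegfa, Angptl4 and those set beside the r values) were chosen after their values were seen. The 10 genes and the lists were chosen with earlier results of these data known. The scripts were tested on simulated data. Counts of 3 or fewer equal at most 0.134 CPM in any library, and floors and intervals on counts cover counting error only. Libraries of a group differed by at least 16.56 chi-square units per degree of freedom, so each is 1 replicate.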

Additional observations from a re-analysis of the deposited data

Results flagged for a closer look

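Among the 20 sets of values tested for a single library far from its group (10 genes in 2 groups), 2 were marked by Dixon's test at the 95% level, and chance alone marks about 1 in 20. The first is Egln3 in iFAXLKO replicate 5, at 30.6 CPM, when the other 7 libraries of that group lay between 10.8 and 16.3 CPM. The same library held the highest level of Hilpda, Adm, Ndrg1 and Ankrd37 and the highest muscle score. Without it, the log2 difference of Egln3 was -0.72 and still not called. The second is Higd1a in WT replicate 2, at 141.8 CPM, when the other WT libraries lay between 77.9 and 93.9 CPM. Without this library the log2 difference of Higd1a was 0.15, also without a call.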

How the results depend on the processing

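No alternative called any of the 10 genes, and the median log2 fold change of the 10 stayed below 0 in each, from -0.24 to -0.10. Hif1a, Egln1, Egln3, Bnip3, Pfkfb3 and Ankrd37 kept a log2 fold change below 0 in every alternative. The number of genes called was 67 with DESeq2, which also called 1 gene of the pathway lists, the Ndrg1 paralogue Ndrg3, against 17 and 0. Whether the replicate numbers pair the samples is unclear and was not tested. The correlations of deviations between libraries of the same number were 0.39, 0.42, 0.19, 0.18 and -0.61, and 3 of 5 pairs correlated best with their own number. With a replicate block over replicates 1 to 5, 7 genes were called, and 11 without the block on the same libraries. Signs turned for 4 genes whose values lie near 0. Higd1a was 0.0107 with upper quartile factors, 0.0468 with library sizes without abundant genes, 0.124 with limma-voom, 0.0951 with the block and 0.0671 on the same libraries without it, 0.00584 with the muscle covariate, and -0.0889 to 0.1497 when 1 library was left out. Hilpda was -0.00662 with limma-voom, -0.000434 without the filter, -0.0374 with the block and -0.0262 on the same libraries without it, and -0.045 to 0.059 when 1 library was left out. Ndrg1 was -0.0507 with limma-voom and -0.00831 to 0.1085 with 1 library left out, and Adm -0.0337 to 0.2091. The cause was not tested. Correlated pairs past the limit numbered 0 to 8 when 1 library was left out, 5 with RLE factors and 6 with library number removed. Counts were lowest for Ankrd37, at 14 to 169 per library, and Adm, at 31 to 92. The part of depth in the width of the intervals was not tested.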
